A study of Mus musculus with 38 samples.

Results

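The spleen of DBA/2J, 1 of the 6 inbred mouse strains exposed to low-dose ionizing radiation (IR) in the series, was followed here across genes on 4 of the 38 two-colour arrays. The members are all arrays whose label names DBA/2J, numbered 34, 83, 68 and 70 by the submitters. Irradiated RNA carried the dye Cy5 on arrays 34 and 83 and the dye Cy3 on arrays 68 and 70, with sham-irradiated RNA in the other dye. The irradiated mice were males of 10 to 14 wk given 10 rad of X-rays (10 cGy) and killed after 3.5 h, and the controls were males of the same strain that were sham-exposed. Each array compared 1 irradiated with 1 control mouse, and each pair was hybridised in duplicate with the dyes swapped, so the 4 arrays hold 2 pairs of mice. Which arrays share a pair is not in the labels. The other strains, named BalbxJ, BI6Jx, C3H, B6.C and A/J in the labels, went through the same exposure on the remaining 34 arrays.

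Spleen filters blood and houses lymphocytes and macrophages, and its red pulp in mice is a site of erythropoiesis. Ionizing radiation breaks DNA, which activates the kinase ATM and the transcription factor p53. The targets of p53 include the cell cycle inhibitor Cdkn1a and the p53 ligase Mdm2, and lymphocytes are among the cells most sensitive to its pro-apoptotic targets. The spleen lies against the tail of the pancreas, whose acinar cells devote most of their RNA to digestive enzymes such as trypsinogens, chymotrypsinogen, amylase and lipase.

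The measured quantity was 1 signed score per spot and array. The scale of these scores, their log base and the dye on top of the ratio are unknown here, because the sources used do not give them. Each array was therefore centred on its median, and the sign was turned on arrays 68 and 70. A positive turned score means more signal from irradiated than from control RNA if the scores are Cy5 over Cy3, and less if they are Cy3 over Cy5. Results are given as positive or negative for that reason, and no fold change can be read from them. The response of a gene is the mean of its 4 turned scores, with equal weight for both dye orientations, and its dye component is the mean of the same 4 scores without turning. Of 21618 probes, 13383 (61.9%) had a value on all 4 arrays, and 3981 of these were named through a RefSeq accession. Of 26 defining markers of B cells, T cells, macrophages, erythroid cells and pancreas, 18 were named on the array and 12 had a value on all 4 DBA/2J arrays, among them Ms4a1 and Cd22 of B cells, Cd3e and Cd4 of T cells, C1qa and C1qb of macrophages, Slc4a1 of red cells, and Ctrb1, Prss2 and Pnlip of pancreas.

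The arrays differed from each other before any comparison of genes. Between 15766 and 19082 probes had a value per array. Array medians were 1.32 on array 34, -0.120 on array 83, 0.253 on array 68 and -1.98 on array 70, and the SD over probes was 1.66, 0.811, 0.814 and 0.717 in the same order. Without turning, arrays 34 and 83 correlated across 13383 probes with r = 0.82, and array 70, of the opposite orientation, correlated with them by 0.66 and 0.60. Array 68 correlated with the other arrays by -0.05 to 0.07 and thus stood apart. After turning, the mean of arrays 34 and 83 and the mean of arrays 68 and 70 correlated by -0.41, and 33.9% of probes had the same sign in both. Of the summed squares of the 4 centred arrays, the dye component held 48.5%, the response 26.6% and the residual 24.9%. These correlations are across probes, which share arrays and are not independent replicates. Among 17 arrays of other strains in its orientation, array 70 correlated under -0.3 with 1 (BI6Jx array 97, r = -0.49), and arrays 34, 83 and 68 with 0.

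Centred scores formed a pair of humps on arrays 34 and 83, and this split of the probes bears on every gene below. The same split was visible on an array of another strain, BalbxJ array 36, from which the probes were divided into an upper and a lower class at a centred score of 1.77. A class could be given to 10818 of the 13383 probes, of which 3512 (32.5%) were upper. Before turning, the median of the upper class was 2.68 on array 34, 1.07 on array 83, -0.229 on array 68 and 0.696 on array 70. The lower class had -0.363, -0.210, 0.0309 and -0.232 on the same arrays. The upper class was thus displaced one way on 3 of the 4 arrays, whichever dye the irradiated RNA carried, and by an unequal amount. A threshold set on arrays 34 and 83 themselves put 95.3% of the classed probes on the same side. Of the 17 other-strain arrays in their orientation, array 36 correlated most with arrays 34 (r = 0.82) and 83 (r = 0.79). The recurrence of its split on these arrays is therefore not independent support. On the other strains' arrays, leaving out array 36, the upper class exceeded the lower on 26 of 33 arrays, by a median of 0.511. What sets the classes apart was not tested, and they were defined after the data were seen.

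**Figure D1:**
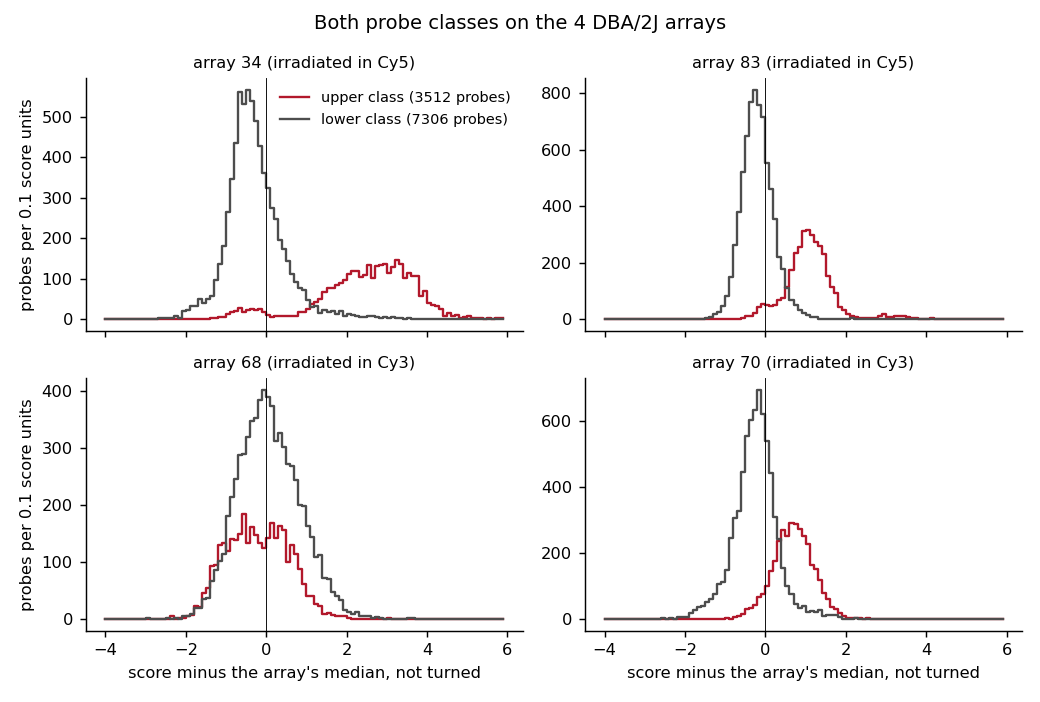
Histograms of the centred scores, not turned, of the 3512 upper-class probes (red) and the 7306 lower-class probes (grey) on each of the 4 DBA/2J arrays; the x axis is the score minus the array's median and the y axis the number of probes per 0.1 score units, with 23 probes of array 34 and 1 of array 70 outside the axis. The classes come from an array of another strain, yet the upper class lies to the right on arrays 34, 83 and 70 and not on array 68.

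The displacement did not cancel between the orientations. The upper class had a median response of 0.793, against -0.0768 in the lower class, and 97.5% of its probes were positive, against 40.5% of the lower class. In the limma fit of the 4 arrays 0 of 13383 probes (0.0%) had an adjusted p under 0.05, and the smallest adjusted p was 0.430. At an unadjusted p under 0.05, 1388 probes (10.4%) were positive and 135 (1.01%) negative. Of the 1130 positive ones that had a class, 95.3% were upper. A further fit was made with each array centred within each class, which removes the displacement. This centring moves all responses of a class by the same amount, down in the upper class and up in the lower class. The further fit again called 0 of 10818 probes (0.0%) at an adjusted p under 0.05, and at an unadjusted p under 0.05 it gave 341 positive (3.15%) and 314 negative probes (2.9%). The array-centred count was not stable: without array 83 it was 2048 probes and without array 34 it was 2, against 0 without array 68 or 70. If arrays 34 and 70, and 83 and 68, are taken as dye swaps of one pair each, it was 2376, and with the other pairing it was 0, with 695 probes at an unadjusted p under 0.05. Of the called probes with a class, 94.2% were upper without array 83 and 91.3% in the pairing with calls. Arrays were the units of both fits. The arrays of a dye swap are not independent, which these p-values do not take into account. An exact sign-flip permutation test could not go below 0.125 with 4 arrays or 0.5 with 2 pairs (two-sided). Responses named below carry the SE of the limma fit.

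Genes of the exocrine pancreas were the most negative in DBA/2J spleen. The lowest response of all 13383 probes was that of Ctrb1, chymotrypsinogen B, and it was followed among named genes by the trypsinogen Prss1, the amylase Amy1 and the trypsinogen Prss2. Of the 11 lowest of 3981 named genes, 7 were on the pancreas list. In all, 15 of its 22 measured genes were negative and 7 positive, with a median response of -0.303 against 0.0804 over all probes. At an unadjusted p under 0.05, 6 of 22 were negative and 0 positive, against 1.01% negative and 10.4% positive over all probes. With the arrays centred within classes, 11 of the 21 genes with a class were negative at that threshold and 0 positive, and the median was -0.789. Over all probes with a class, 2.9% were then negative and 3.15% positive. On this scale 8 of the 16 lowest of 3262 named genes were pancreatic, led by the lipase Pnlip, Ctrb1, Prss1 and Amy1. No gene passed an adjusted p under 0.05, and the list was written with earlier results of these data known. In bulk RNA, fewer cells of a type and less RNA per cell cannot be told apart. How much pancreatic tissue the samples held was not tested.

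Ctrb1 had turned scores of -2.28 and -1.36 on arrays 34 and 83 and of -3.51 and 0.235 on arrays 68 and 70. It was thus negative on 3 arrays and near 0 on the last (response -1.73 ± 0.60, adjusted p = 0.430, limma). Prss1, a trypsinogen, had -2.66 and -1.27 on the Cy5 arrays and -2.53 and -0.129 on the Cy3 arrays, and was negative on all 4 (-1.65 ± 0.46). Amy1, an amylase, had -1.27, -1.004, -3.61 and -0.520 on arrays 34, 83, 68 and 70, likewise negative on all 4 (-1.60 ± 0.50). Prss2 had -2.04, -0.979, -3.60 and 0.716 in that order (-1.47 ± 0.68). Array 70 was the least negative or the positive one in each of these 4 genes. Prss3 was the most even of the group, at -2.03, -1.04, -0.786 and -0.963 (-1.20 ± 0.28). Reg1, a secreted protein of acinar cells, had -1.06, -1.20, -2.03 and -0.0628 (-1.09 ± 0.37). Trypsinogens, and amylases likewise, are near-identical copies, so a probe can catch RNA of its neighbours and these genes are not separate observations.

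Pnlip, pancreatic triglyceride lipase, is an upper-class probe, and its values show what the class does. Its scores were -0.177 and 0.309 on arrays 34 and 83 and -3.04 and -1.85 on arrays 68 and 70. Centred within its class they were -2.85, -0.758, -3.27 and -1.15, negative on all 4, and the response was -2.01 ± 0.42, against -1.19 ± 0.31 before. The carboxyl ester lipase Cel had scores from -1.36 to 1.04, a response of -0.301 before and of -1.12 ± 0.24 within its class. The ribonuclease Rnase1 likewise had -0.306 before and -1.13 ± 0.34 within its class. The chymotrypsin-like Ctrl and the lipase-related Pnliprp1, both upper, had 0.0305 and 0.0606 before and -0.789 and -0.759 within their class. That change is the shift given to every upper-class probe. The endocrine genes did not pass the unadjusted threshold in either fit, with responses of -0.700 for Ins1, 0.648 for Ins2 and 0.663 for Sst, which encodes somatostatin. The regeneration proteins Reg3a and Reg3b were positive at 0.330 and 0.398.

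The list's median on single arrays was -0.367, -0.0590, -0.924 and -0.105 on arrays 34, 83, 68 and 70, and within classes -0.871, -0.747, -1.05 and -0.213. It was below 0 on each array in both versions. Array 68, which stood apart from the others over all probes, also held the lowest list median. Without array 68 the median was -0.0569 with array centring and -0.568 within classes, and 4 genes instead of 6 were negative at an unadjusted p under 0.05. Without array 34, 83 or 70 it ran from -0.508 to -0.278, and within classes from -0.924 to -0.717. Without array 68, array-centred medians were lower for genes altered in DBA/2J (-0.129) and dendritic cell genes (-0.103). They were also lower for proteasome (-0.0720) and platelet genes (-0.0668). Without array 83 the platelet list was lower (-0.351). Within classes the pancreas list stayed lowest whichever array was left out. The role of array 68 in the result was not tested beyond these values. By strain, the median of the 21 genes present in all strains was -0.306 in DBA/2J, against -0.817 in BalbxJ, -0.635 in B6.C, -0.206 in A/J, 0.0655 in C3H and 0.0868 in BI6Jx. For DBA/2J minus the mean of the other strains, 13 of the 21 genes were positive, the median was 0.159, and 0 passed an unadjusted p under 0.05 in either direction. Ctrb1 and Prss1 were on the negative side of that difference, at -1.32 ± 0.89 and -1.16 ± 1.06.

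**Figure D2:**
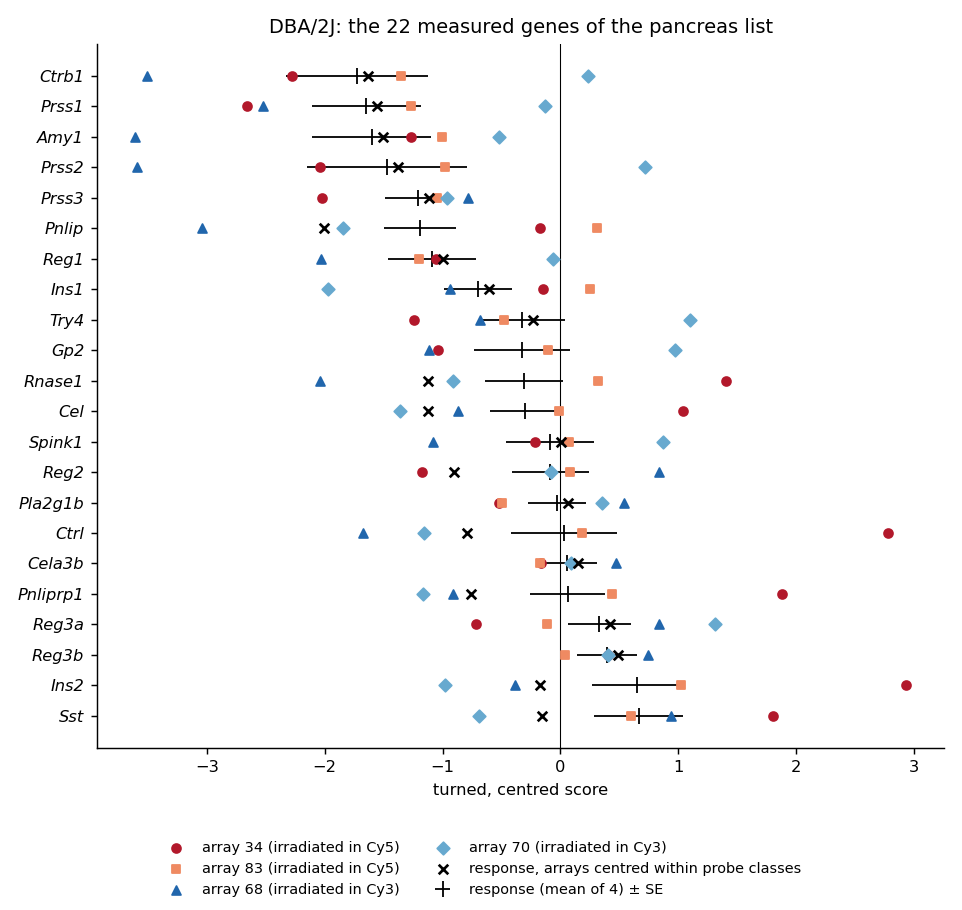
Turned, centred scores (x axis, deposited units) of the 22 measured pancreas list genes on the 4 DBA/2J arrays, ordered by response; bars mark the response ± SE of the limma fit and crosses the response with arrays centred within probe classes (21 genes). The digestive enzymes at the top lie left of 0 on 3 or 4 arrays, and array 68 holds the lowest value in several of them.

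The promoters of the trypsinogens Prss1, Prss2 and Prss3 are shown because these genes lay among the lowest responses. They were chosen after their values were seen. PTF1, the transcription factor complex that drives digestive enzyme genes in acinar cells, binds a bipartite site that contains an E-box. In the 250 bases before each start (RefSeq, GRCm38.p6), the E-box CACCTG was searched on both strands and is given in capitals (CACCTG or its complement CAGGTG). Prss1 lies at chr6:41458680-41458929 on the plus strand, Prss2 at chr6:41521526-41521775 on the plus strand, and Prss3 at chr6:41377614-41377863 on the minus strand.
Prss1: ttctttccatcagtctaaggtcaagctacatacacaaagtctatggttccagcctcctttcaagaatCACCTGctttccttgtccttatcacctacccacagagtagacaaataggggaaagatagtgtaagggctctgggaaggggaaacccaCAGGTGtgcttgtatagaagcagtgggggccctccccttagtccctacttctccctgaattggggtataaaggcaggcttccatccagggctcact
Prss2: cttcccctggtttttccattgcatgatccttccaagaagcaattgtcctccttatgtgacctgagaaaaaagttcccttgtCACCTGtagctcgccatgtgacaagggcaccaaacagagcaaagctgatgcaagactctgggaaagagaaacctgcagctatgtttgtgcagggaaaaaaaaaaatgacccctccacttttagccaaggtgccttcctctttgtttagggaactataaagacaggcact
Prss3: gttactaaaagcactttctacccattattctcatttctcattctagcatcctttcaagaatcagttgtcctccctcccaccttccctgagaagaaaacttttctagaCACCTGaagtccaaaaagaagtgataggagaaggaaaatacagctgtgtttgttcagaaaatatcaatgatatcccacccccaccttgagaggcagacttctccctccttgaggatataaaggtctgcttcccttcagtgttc
The E-box was found in 17.2% of 32851 promoter entries. Counted by gene, with any entry of a gene sufficing, 10 of the 20 measured pancreas list genes with an entry had it. It was in 5 of the 11 that were negative within classes at an unadjusted p under 0.05. Shares by entry and by gene differ in unit. Ctrb1 and Amy1, among the lowest responses, and Pnlip, the lowest within classes, had 0 such E-boxes. The trypsinogen Try4, with 1, is not shown. A match is a description of these letters and not a binding site.

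The p53 targets showed no common direction. Of 10 measured genes 5 were positive and 5 negative, 0 passed an unadjusted p under 0.05 in either direction, and the median was -0.0196. Cdkn1a, the p53-induced cell cycle inhibitor, was the 1 list gene positive on all 4 arrays, at 0.617, 0.377, 0.283 and 0.156 on arrays 34, 83, 68 and 70 (0.358 ± 0.25; named after its values were seen). Mdm2, the ligase that degrades p53, was negative on all 4, at -0.343, -0.365, -1.14 and -0.116 (-0.491 ± 0.28). Bax, a pro-apoptotic target, had -0.256, 0.0385, -2.03 and 0.136, and its response of -0.529 rested on array 68. The cytokine Lif had 3.41, 0.953, 0.298 and -0.785, with opposite signs on arrays 34 and 70. The adjusted p of these genes in the limma fit was not under 0.430.

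Among DNA damage and repair genes, 15 of 26 were positive, with 3 positive and 0 negative at an unadjusted p under 0.05 and a median of 0.153. Over all probes 57.3% were positive and 10.4% positive at that threshold, so neither count stood apart from the background. The largest response of the named genes in these lists was that of Rpa2, a subunit of the single-strand DNA-binding protein RPA. It had 15.4 and 3.73 on arrays 34 and 83 but -0.247 and -1.40 on arrays 68 and 70. Its response of 4.36 ± 1.69 thus came from 1 orientation, and its dye component was larger (5.19). Rad50, of the complex that senses double-strand breaks, had 3.58, 1.15, 0.974 and -0.567 (1.29 ± 0.48). Both are upper-class probes. Within classes the list's median was 0.0371, and 1 of 24 genes was positive at an unadjusted p under 0.05. Top3a, a topoisomerase, had a response of 0.171 ± 0.28.

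The T cell, plasma cell and natural killer lists had the 3 highest medians, and these were smaller or negative within the probe classes. Of 11 T cell genes 10 were positive, with a median of 0.499, but the list's median was 2.55 and 0.985 on arrays 34 and 83 and -0.529 and -0.528 on arrays 68 and 70. Of the 10 with a class, 7 were upper, and within classes the median was 0.197 with 0 genes past the unadjusted threshold, against 3 before. With array centring, 10.4% of all probes were positive at that threshold. Without array 34 the T cell median was 0.196. Cd28, a costimulatory receptor, had 3.10, 1.23, 1.13 and -0.343 (1.28 ± 0.42). Cd2, an adhesion receptor, was the 1 T cell gene of one sign on all 4 arrays, at 2.89, 1.08, 0.255 and 0.0757 (1.07 ± 0.36). Of 14 natural killer and cytotoxic genes 12 were positive with a median of 0.411, and within classes it was 0.168. Perforin (Prf1), which opens pores in target cells, had 2.63, 1.31, 1.44 and -0.642 (1.19 ± 0.43), and the granzyme Gzmm had 2.31, 1.59, 0.304 and -0.485 (0.930 ± 0.29). Klrd1, a killer cell lectin-like receptor that DBA/2J mice are known to lack, had 3.10, 0.945, 0.874 and -0.612 (1.08 ± 0.45), an upper-class probe whose response within its class was 0.259.

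**Figure D3:**
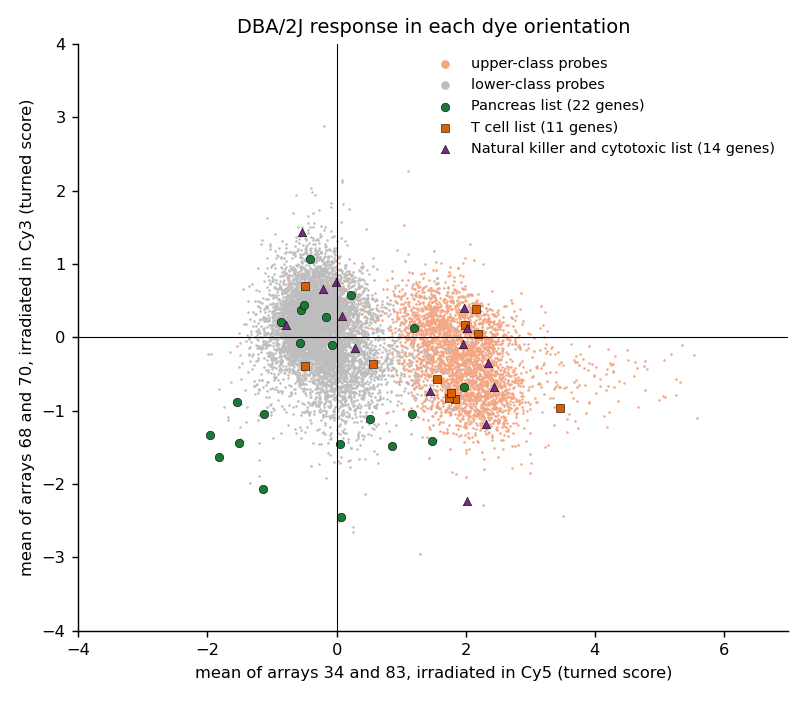
Mean turned score of arrays 34 and 83 (x axis) against that of arrays 68 and 70 (y axis), both in deposited units, for the 10818 DBA/2J probes with a class (salmon upper, grey lower; 1 probe outside the axes), with the measured genes of 3 lists overlaid. Upper-class probes form a cloud of their own on the right, which holds 7 of the 10 classed T cell genes and 8 of the 13 classed natural killer genes, and several pancreas genes lie below the clouds.

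B cell genes were even, with 9 of 15 positive and a median of 0.132. Tnfrsf13b, the receptor TACI for the survival factors BAFF and APRIL, stood out at 6.22 and 4.85 on arrays 34 and 83, 0.577 on array 68 and -1.05 on array 70 (2.65 ± 0.39). It was positive on 3 of 4 arrays, and its response within the upper class was 1.83. Its dye component (2.89) was larger than its response. The antigen-presentation gene H2-Ob was positive on all 4 arrays, at 0.479, 0.245, 0.772 and 0.600 (0.524 ± 0.25). The 4 plasma cell genes had a median of 0.455, and within classes -0.120; Tnfrsf17, the receptor BCMA, had 3.37, 1.59, -0.950 and -1.33, split by orientation.

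Myeloid genes were positive in 17 of 21 members of the neutrophil and granulocyte list (median 0.140) and in 15 of 23 of the macrophage and monocyte list (0.121), against 57.3% of all probes. Within classes 13 of 21 neutrophil and granulocyte genes were positive (median 0.0767) and 11 of 21 macrophage and monocyte genes (0.0196). At an unadjusted p under 0.05, 0 macrophage and monocyte genes were positive and 2 negative. Over all probes with a class, 3.15% were positive and 2.9% negative. Mcpt8, a protease of basophils, was positive on all 4 arrays at 2.74, 1.39, 2.33 and 0.209 (1.67 ± 0.43), and its response within its class was 0.848. Ms4a2, the β chain of the high-affinity IgE receptor of mast cells and basophils, was positive at 1.07, 1.36, 0.680 and 0.475 (0.896 ± 0.25), but 0.0767 within its class. Fpr2, a formyl peptide receptor, had 2.99, 3.77, 0.657 and -1.10 (1.58 ± 0.37). Tlr2, a receptor for bacterial lipoproteins, had 3.88, 0.997, 0.805 and -0.706 (1.24 ± 0.52). Vcam1, an adhesion molecule of red pulp macrophages and stroma, was negative on all 4 at -0.694, -1.13, -0.443 and -0.558 (-0.707 ± 0.25). The dendritic cell and antigen presentation list had 6 of 15 genes positive and a median of -0.0363, with H2-DMb1 at 0.521 and Flt3, a cytokine receptor of dendritic cell precursors, at -0.617.

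Of 20 interferon response genes 12 were positive, with a median of 0.0219. Eif2ak2, the double-stranded RNA-activated kinase PKR, had 5.89, 3.35, 0.733 and -1.41 (2.14 ± 0.53), and Ifit3 had 3.25, 1.43, 0.202 and -0.517 (1.09 ± 0.37). Cytokines and chemokines were positive in 17 of 28, with a median of 0.199. At an unadjusted p under 0.05, 6 were positive and 0 negative, against 10.4% positive and 1.01% negative over all probes. Within classes the median was -0.00511 and 0 of 25 passed. Cxcl13, which draws B cells into follicles, had 3.29, 1.48, 0.524 and -0.231 (1.27 ± 0.37), and Tnf had 1.45, 1.99, -0.285 and 0.104 (0.814 ± 0.26).

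Apoptosis genes were positive in 18 of 27 (median 0.135). Within classes 3 of 21 were positive at an unadjusted p under 0.05 and 1 negative. Over all probes with a class, 3.15% were positive and 2.9% negative at that threshold. As the largest positive count among the lists, it is not read as a result about apoptosis. Bcl2a1a, an anti-apoptotic Bcl2 relative with near-identical copies in the genome, had 3.35, 3.29, 0.737 and -1.04 (1.58 ± 0.35), and 0.766 within its class. Pdcd4, a translation inhibitor, had 3.60, 1.29, 0.292 and -0.429 (1.19 ± 0.42). Of 11 immediate early genes 6 were positive. Jun, the AP-1 subunit, had 3.53, 2.99, 0.511 and -0.327 (1.68 ± 0.28) and 0.856 within its class, and Elk4, a partner of serum response factor, had 4.22, 2.65, 0.274 and -0.685 (1.61 ± 0.36) and 0.796 within its class. Both passed the unadjusted threshold in the array-centred fit and within classes, where 2 of 11 genes did.

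In the oxidative stress list 9 of 24 genes were positive (median -0.0664). Gsto1, a glutathione transferase, was positive on all 4 arrays (0.884, 1.32, 0.581 and 0.384) and Gclm, the modifier subunit of glutathione synthesis, negative on all 4 (-0.715, -0.443, -0.838 and -0.341). Their responses were 0.792 ± 0.25 and -0.584 ± 0.26, and within classes -0.0276 and -0.491. Heat shock and chaperone genes had a median of 0.305, carried by array 34 (1.29), and -0.0459 within classes. The chaperonin subunit Cct8 had a response of 0.818 ± 0.27, and the Hsp110 family member Hspa4 had -0.758 ± 0.26. Of the circadian genes, Bhlhe40 had 0.759 ± 0.27 and Arntl, the clock protein BMAL1, had 0.474 ± 0.28.

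TGF-β and matrix genes were even, with 15 of 29 positive and a median of 0.0199. Ltbp2, a latent TGF-β binding protein of elastic fibres, had 1.89, 1.86, 1.65 and 0.238 on arrays 34, 83, 68 and 70. It was positive on all 4 (1.41 ± 0.32, adjusted p = 0.430, limma), but within its class it was -0.786 on array 34, and the response was 0.590. The paper reports lower Ltbp2 expression after IR, without naming a strain. With the dye direction unknown here, the sign of Ltbp2 cannot be set against that report. Tgfbi, a TGF-β-induced matrix protein, had 4.02, 1.45, 0.0545 and -2.40, from which no shared direction can be read (0.783 ± 0.56). Other genes that the study's text names were Smcp of the sperm mitochondrial capsule at 0.248 ± 0.28, Notch3 at 0.499 ± 0.53 and the interleukin-33 receptor Il1rl1 at -0.442 ± 0.38. Smcp and Notch3 were split by orientation, and 5 more genes it names were not matched to a probe.

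Ribosomal proteins were positive in 28 of 45 (median 0.193, and -0.123 within classes), led by Rps18 at 5.88, 2.69, -0.00819 and -0.926 (1.91 ± 0.53) and Rps7 at 0.957 ± 0.25. Respiratory chain genes had a median of 0.125, and -0.185 within classes, with Ndufc1 at 1.22 ± 0.40 and Ndufa5 at 0.840 ± 0.28. Cell cycle genes had a median of 0.0935, with cyclin A2 (Ccna2) at 0.875 ± 0.27 and the pocket protein Rbl2 at 1.82, 1.11, 1.59 and -0.514 on arrays 34, 83, 68 and 70. Proteasome genes had -0.0781, with Psmb2 at -0.494 ± 0.29 and Psme1 at 0.613 ± 0.43. Erythroid genes were negative in 12 of 22 (median -0.140), with the erythropoietin receptor Epor positive on all 4 arrays (0.753 ± 0.25) and the transferrin receptor Tfr2 negative on all 4 (-0.610 ± 0.25). Platelet genes had a median of -0.141, with Gp9 at 0.841 ± 0.43. Stromal and vessel genes had 0.104; the endothelial adhesion molecule Pecam1 had 4.12, 3.08, 0.0802 and -0.733 (1.64 ± 0.31). Adipose genes had -0.0542, with the lipase Lipe at 1.18 ± 0.43 and Dgat1 at 0.784 ± 0.42. Of 5 genes known to be altered in DBA/2J, 3 were positive and 2 negative, with a median of 0.359, and 0.201 within classes. Ahr of this list, the aryl hydrocarbon receptor, was negative on all 4 arrays (-0.675 ± 0.25).

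The 26 lists other than pancreas had medians of -0.141 to 0.499, 19 of them positive, and within classes of -0.185 to 0.201, 11 of them positive. Within classes none of these 26 had more than 3 positive or 2 negative genes at an unadjusted p under 0.05. Of the 43 positive genes named through the lists, 36 were upper-class probes and 31 were negative on array 70.

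**Figure D4:**
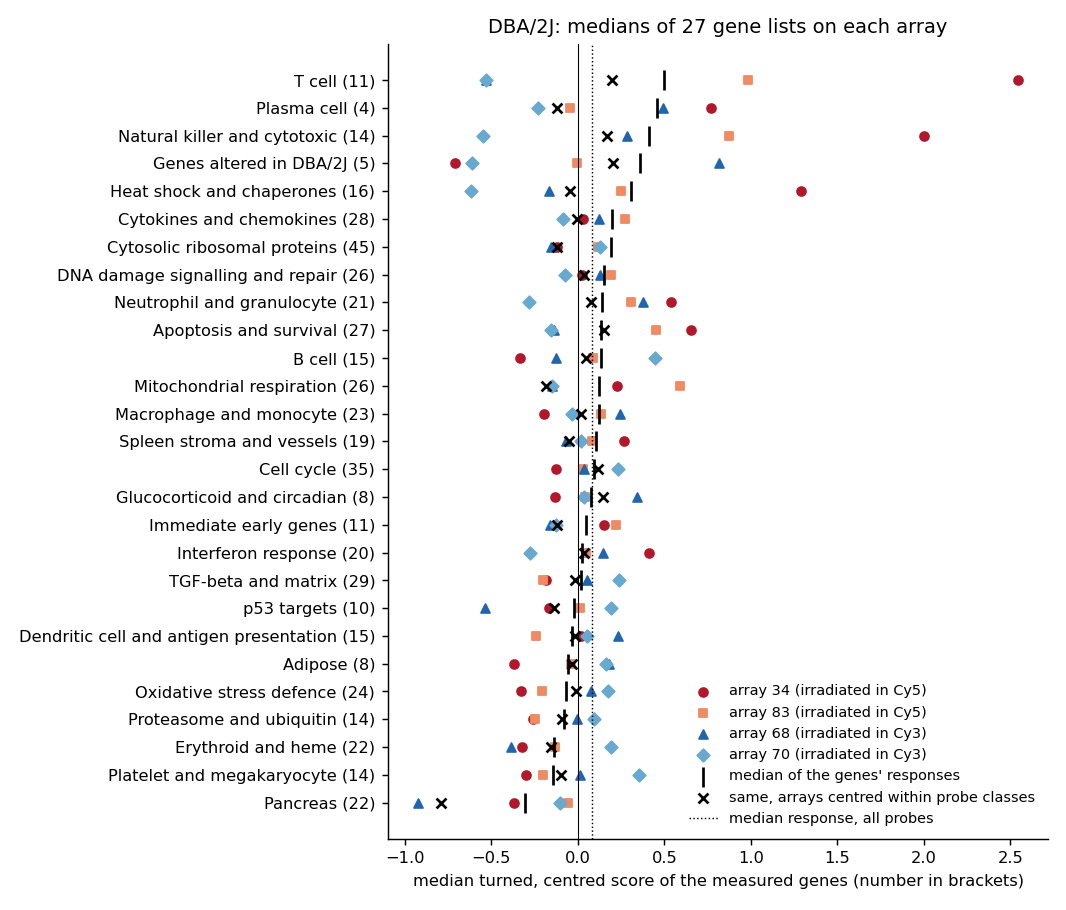
Median turned, centred score (x axis, deposited units) of the measured genes of 27 lists on each of the 4 DBA/2J arrays, with the median response (bars), the same with arrays centred within probe classes (crosses) and the median over all probes (dotted line, 0.0804). T cell and natural killer lists are spread from -0.549 to 2.55 by array, whereas the pancreas list lies below 0 on all 4 arrays.

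Genes of one sign on all 4 arrays were counted next. In all 474 probes (3.54%) were positive on every array and 600 (4.48%) negative. In the upper class 186 were positive and 3 negative, and in the lower class 222 were positive and 471 negative. More probes kept one sign on all 4 arrays without turning, 2111 (15.8%) positive and 2338 (17.5%) negative. Ranked by their weakest array, the leading positive genes were Hap1, Cd46, Gpr162, Traf1, Ogn, Fgf15, Ms4a2, Gpa33, Col5a3, F2rl2, Gata5 and Pdgfb. Hap1, the huntingtin-associated protein of vesicle transport, had 2.12, 1.74, 0.841 and 0.674 on arrays 34, 83, 68 and 70 (1.35 ± 0.25). Cd46, a complement regulator, had 2.21, 1.43, 1.04 and 0.625 (1.33 ± 0.275). Traf1, an adaptor of TNF receptors, had 2.51, 1.24, 0.533 and 0.572 (1.21 ± 0.30). Of these 12 genes 8 were upper-class probes, and none of the 8 kept one sign on all 4 arrays once centred within the class, each being negative on array 34. Their responses were then 0.526 for Hap1, 0.506 for Cd46, 0.394 for Traf1, 0.330 for Gata5, 0.202 for Gpa33, 0.101 for Gpr162, 0.0767 for Ms4a2 and -0.0564 for Fgf15. The genes were picked for a positive turned score on every array, also on array 70, where the upper-class median was -0.696. Within the class all 8 were thus high on array 70 (1.11 to 1.37). Their loss of one sign depends on that choice and is not a result about these genes. Col5a3, a collagen V chain, and Pdgfb, a growth factor of vessel walls and platelets, were lower-class probes at 0.873 ± 0.32 and 0.824 ± 0.31, and within their class they had 0.966 and 0.917. Col5a3 was highest on array 34 (1.90, against 0.439 to 0.597 elsewhere) and Pdgfb on array 68 (1.77, against 0.405 to 0.668). Ogn, the proteoglycan osteoglycin, had no class and was even at 1.07, 1.20, 0.493 and 0.843 (0.903 ± 0.25), and F2rl2, a thrombin receptor of platelets, had 0.970 ± 0.25. The intestinal hormone gene Fgf15, the epithelial antigen Gpa33, the orphan receptor gene Gpr162 and the transcription factor Gata5 had responses of 0.763 to 1.15 before that centring.

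On the negative side the leading genes were Oxt, Prss3, Masp2, Gamt, Dph6, Hoxc9, Lect2, Traip, Amy1, Kdr, Lce1h and Sp1. Among them 8 were lower-class probes, 0 upper-class, and 4 had no class. Oxt, the precursor of oxytocin, had -2.49, -0.871, -1.43 and -0.818 (-1.40 ± 0.35). Masp2, a protease of the lectin pathway of complement, had -1.62, -1.34, -2.01 and -0.754 (-1.43 ± 0.31). Lect2, a protein secreted by liver, had -0.988, -0.731, -2.06 and -0.561 (-1.08 ± 0.33), and Gamt, an enzyme of creatine synthesis, had -1.44, -1.08, -0.746 and -0.699 (-0.991 ± 0.25). Sp1, a general transcription factor, had -1.78, -1.33, -1.11 and -0.473 (-1.17 ± 0.27). Kdr, the VEGF receptor of endothelium, was among the most even, at -0.809, -0.519, -1.03 and -0.793 (-0.787 ± 0.25). Hoxc9, a homeobox factor, the ubiquitin ligase Traip, the diphthamide synthesis enzyme Dph6 and the epidermal envelope protein Lce1h had responses of -0.973 to -0.637. None of the 24 genes passed an adjusted p under 0.05 (all 0.430, limma).

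**Figure D5:**
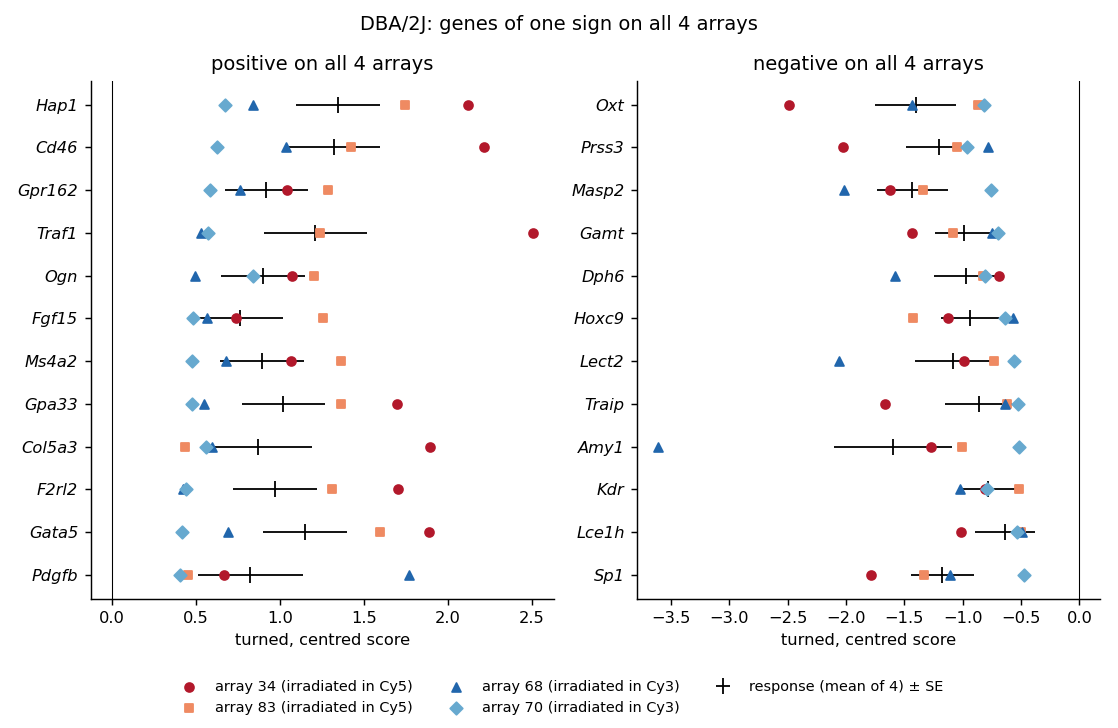
Turned, centred scores (x axis, deposited units) on the 4 DBA/2J arrays of the 12 positive (left) and 12 negative (right) named genes of one sign with the largest weakest value, with the response ± SE of the limma fit. On the left the arrays with irradiated RNA in Cy5 lie mostly above those in Cy3, whereas on the right the orientations are mixed.

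The DBA/2J response was also set against the mean response of the 5 other strains, over 12018 probes and 38 arrays. The limma fit called 0 (0.0%) at an adjusted p under 0.05, and at an unadjusted p under 0.05 it gave 465 probes higher (3.87%) and 52 lower (0.433%) in DBA/2J. These counts rested on single arrays: they were 23 higher and 20 lower without array 34, 47 and 45 without array 68, 714 and 105 without array 70, and 1339 and 49 without array 83. Earlier results of these data put the dye direction of arrays 50, 53 and 97 of other strains in doubt. Without these 3 arrays 828 probes were higher and 126 lower, and with their signs turned 910 and 158. The 5 genes with the smallest p on the higher side were Tnfrsf13b, Plpp2, S100a10, Lrrc6 and Fzd7. All 5 had a negative turned score on array 70. This comparison was not run within probe classes. Tnfrsf13b had a response of 2.65 in DBA/2J, against 1.63 in A/J, 0.548 in BalbxJ, 0.153 in B6.C, -0.462 in BI6Jx and -0.841 in C3H, a difference of 2.44 ± 0.61 (adjusted p = 0.872, limma). The lipid phosphatase gene Plpp2 had 1.78 in DBA/2J, against -0.239 to 0.486 in the other strains (1.70 ± 0.47). Fzd7, a Wnt receptor, had 1.05, against -0.639 to 0.188 (1.20 ± 0.36). It was split by orientation, at 3.94, 1.07, -0.0815 and -0.720 on arrays 34, 83, 68 and 70, and its DBA/2J response within the upper class was 0.233. Lrrc6 had 1.31, against -0.281 to 0.837, and S100a10, a calcium-binding partner of annexin, had 1.08, below the 1.35 of BI6Jx. On the lower side, Ptk6, a kinase of epithelia, had the largest difference at -2.06 ± 0.34 (adjusted p = 0.168). Its DBA/2J response was only -0.354, however, against 8.19 in C3H and -0.169 to 0.576 in the other 4 strains. The meiotic gene Msh4, the zinc finger gene Zfp92 and the testis kinase gene Tssk1 likewise had 0.0746, -0.149 and -0.384 in DBA/2J, against 7.08, 5.91 and 3.13 in C3H. Kcnu1, a potassium channel of sperm, was the 1 gene of these 5 that was negative on all 4 arrays, at -2.18, -0.850, -0.352 and -0.459 on arrays 34, 83, 68 and 70 (-0.961 ± 0.31), against -0.719 in BI6Jx and -0.201 to 0.362 in the others. Across these probes the DBA/2J response correlated with that of BI6Jx by r = 0.63 and of BalbxJ by 0.59, and with that of B6.C, C3H and A/J by 0.18, -0.11 and -0.18. These values are across probes that share the classes described above.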

How the data were processed

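RNA of mouse spleen was hybridised on Compugen long-oligonucleotide two-colour arrays. Per the study's methods, the authors removed spots of poor quality or low expression, subtracted local background and applied Lowess for their analysis. Whether the 1 signed score per spot that they deposited is the product of those steps is not stated, and array medians of the deposited scores ran from -3.16 to 3.95. The scale, log base and dye direction of these deposited scores are unknown here. Of 23232 spots 1235 were controls, and spots of 1 accession were averaged into 21618 probes, of which 6516 were named by RefSeq accession. Each array was centred on its median and turned where irradiated RNA was in Cy3. limma 3.58.1 (R 4.3.3) was fitted to 13383 probes with a dye component as intercept and the response as ±1, with Benjamini-Hochberg adjustment over all probes and a threshold of 0.05. A second fit over 38 arrays had a mean for each strain and orientation. The fits were tested on simulated data with independent noise of equal size on every array. Unequal spreads between arrays and shared mouse pairs were not simulated, so the p-values of the real arrays were not checked by it. Nothing in the labels says that arrays are separate animals beyond the pairs, so p-values measure the spread between arrays. The depth has no counterpart here, and the 4 arrays limit the precision.

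Named genes were the 12 on each side of one sign on all 4 arrays with the largest weakest value, up to 2 per list with the smallest unadjusted p, those the study's text names, and 5 on each side with the smallest p for DBA/2J minus the other strains. Some genes that this rule names are not reported here. Pancreas list members and Cdkn1a are given beyond that rule and were chosen after their values were seen. The members, lists and comparisons were chosen with earlier results of these data known. Probe classes and centring within them were chosen after seeing the data. The alternatives were the scores as deposited, scaling, both possible pairings of the dye swaps, separate spreads per probe, a looser filter, all 38 arrays, leaving out each array or strain, strains as units, and leaving out arrays 50, 53 and 97. Turning the signs of those 3 arrays was added after seeing the data.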

Additional observations from a re-analysis of the deposited data

Results flagged for a closer look

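Among 117 sets of 4 DBA/2J arrays (90 named genes and 27 list medians), 5 held an array far from the other 3 by Dixon's test, and chance gives about 1 in 20 such sets. Array 34 stood apart for Col5a3 at 1.90, for Traip at -1.67 and for Lce1h at -1.01. Array 68 stood apart for Dph6 at -1.58. Array 70 stood apart for Ltbp2 at 0.238, against 1.65 to 1.89 on the other arrays.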

How the results depend on the processing

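The count of 0 probes for the DBA/2J response at an adjusted p under 0.05 (limma) depended on how arrays were combined. It was 1 (Rpa2) with scores as deposited and 2376 if arrays 34 and 70, and 83 and 68, are swap partners, where a single SE served all probes. With the other pairing of the swaps it was 0, with 695 probes at an unadjusted p under 0.05. Leaving out 1 array gave 0 to 2048, the highest without replicate 4 (array 83) and 2 without replicate 1 (array 34). Of the called probes with a class, 91.3% were upper in the first pairing and 94.2% without replicate 4. The count was also 0 with scaling, with separate spreads, with the looser filter and over 38 arrays, with 2022, 799, 1900 and 1193 probes at an unadjusted p under 0.05. The dye component had 0 probes, 1 as deposited, 1911 with scaling and 0 to 2962 leaving out 1 array (144 without replicate 1). DBA/2J minus the other strains had 0 probes, 6 without BI6Jx, 1 without A/J, and 0 to 9 leaving out 1 DBA/2J array (9 without replicate 4). It was also 0 without arrays 50, 53 and 97 and with their signs turned, with 954 and 1068 probes at an unadjusted p under 0.05, against 517. The cause of these changes was not tested. The labels do not say which arrays share a pair of mice, so both pairings were run. Across 13383 probes the difference of arrays 34 and 83 correlated with that of arrays 68 and 70 by r = 0.40 after turning, a hint from the data that does not settle the pairing, as the probe classes differ in both.

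Responses changed sign with scores as deposited for Lce1h (0.0960), Mdm2 (0.242), Gclm (0.149), Vcam1 (0.0260), Flt3 (0.116), Tfr2 (0.122), Ahr (0.0580), Psmb2 (0.239), Il1rl1 (0.291), Ptk6 (0.379), Zfp92 (0.583) and Tssk1 (0.349). Within probe classes they did for Fgf15 (-0.0564), Tnf (-0.00512), Gsto1 (-0.0276), Cct8 (-0.00153), Bhlhe40 (-0.0599), Tnfrsf17 (-0.147), Fkbp11 (-0.120), Epor (-0.0659), Dgat1 (-0.0351), Psme1 (-0.206), Smcp (-0.571), Notch3 (-0.321) and Tgfbi (-0.0357). Leaving out 1 array gave -0.00600 to 1.23 for Psme1, -0.321 to 1.32 for Notch3, -0.0234 to 0.365 for Top3a, -0.943 to 0.0600 for Il1rl1 and -0.308 to 0.00915 for Zfp92. Without C3H, DBA/2J minus the other strains was 0.0570 for Msh4.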

Other observations

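The dye component, the part of the score that kept its sign when the dyes were swapped, was larger in size than the response in 8844 of 13383 probes (66.1%). The named genes with the largest dye components, chosen after their values were seen, were Rpa2 (5.19), the splicing factor kinase Srpk1 (3.34), the integrin Itgb6 (3.02), the methyltransferase Inmt (2.91) and Tnfrsf13b (2.89). The lowest were the coatomer subunit Copg2 (-1.22) and the polycystin Pkd1 (-1.19). Of these, Srpk1 had scores of 7.30, 3.87, 0.699 and 1.503 on arrays 34, 83, 68 and 70 without turning.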
